A study of Homo sapiens with 28 samples.

Results

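H3K27ac peaks were compared between the 2 lists that carry TFE3 alone in their file name and the 2 lists that carry EV, the study's short form for empty vector. The sample labels name these libraries differently. The TFE3-named lists are labelled YAP5SA replicate 1 and replicate 2, and the EV-named lists are labelled TAZ4SA replicate 1 and replicate 2. The peak lists alone do not show which naming is right, so TFE3 against empty vector and YAP5SA against TAZ4SA cannot be told apart, and the lists are called TFE3-named and EV-named throughout. Each list was taken to its 30236 peaks with the highest −log10 p, which is the length of the shortest of the 4 lists, and peaks that shared at least 1 bp were merged into regions. A region was counted on a side when it held a peak in both lists of that side and in neither list of the other. Of 36529 merged regions, 451 (1.23%) lay on the TFE3 side and 3815 (10.4%) on the EV side. Merging the full lists of all 14 libraries of the series gave 138849 regions.

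The study transduced SW872 cells, an established human liposarcoma line, with 7 constructs and mapped H3K27ac in 2 libraries per label. All of the cells were stable lines made with retroviral vectors, selected as pools and not as single clones, and the expressed proteins carried a Flag tag. Per the labels, cells were collected after 48 h at 90% confluence, except for the CAMTA1 cells, which were collected before confluence. The ChIP methods give the same confluence for all constructs and name no exception for CAMTA1. In all 14 lists the file name carries another construct than the label. No peak list holds a transgene reading, so the construct in the cells was not checked here.

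H3K27ac is the acetylated form of histone H3 at lysine 27 that marks active promoters and enhancers, often as domains that span several nucleosomes. TFE3 is a basic helix-loop-helix leucine zipper transcription factor of the MiT/TFE family, known for driving lysosomal and autophagy genes. YAP5SA and TAZ4SA are forms of the coactivators YAP and TAZ in which serines phosphorylated by the LATS kinases were replaced by alanines, so that they escape the Hippo pathway. An empty vector lacks the insert and serves as the baseline of such a series.

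The 4 lists differed before any overlap was taken. The TFE3-named lists held 31086 peaks in replicate 1 and 30236 in replicate 2, whereas the EV-named lists held 102009 and 98992. The limit of 30236 peaks therefore took in all or nearly all of the TFE3-named lists and left out 71773 and 68756 peaks of the EV-named lists. At the limit, the last peak of the TFE3-named lists had a −log10 p of 3.69 and 3.27, and the last peak of the EV-named lists had 9.69 and 8.96. At a −log10 p of at least 9.69 the TFE3-named lists held 15537 and 13894 peaks and the EV-named lists 30402 and 27724. An equal number of peaks thus reached weaker calls in the TFE3-named lists.

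Peaks of equal rank were also wider in the EV-named lists. The top 30236 peaks had a median width of 962.5 and 807 bp in the TFE3-named lists and of 2962 and 2363 bp in the EV-named lists. They covered 42.6 and 38.0 Mb against 124.3 and 100.9 Mb. The median fold, which is the enrichment over local background at the summit as the peak caller gives it, was 4.48 and 4.21 against 9.75 and 9.36. The values of the 2 sides did not overlap for any of these measures, but 2 lists against 2 cannot go below an exact two-sided p of 0.333, so no test was made. Overlap in bp, given as the Jaccard index (shared bp over the bp of the union of 2 lists), was 0.559 within the TFE3-named pair, 0.672 within the EV-named pair and 0.286 to 0.365 between the sides. Between 90.1% and 94.9% of the bp in a TFE3-named list lay under peaks of an EV-named list, and 29.0% to 38.0% of the bp in an EV-named list lay under peaks of a TFE3-named list.

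Most regions with repeated peaks were common to the 2 sides. All 4 lists had a peak in 15858 regions, which is 43.4% of the merged regions and 98.4 Mb of 138 Mb covered. The TFE3 side held 451 regions, 1.23% of the merged regions and 0.430 Mb. The EV side held 3815 regions, 10.4% of the merged regions and 11.3 Mb. A further 3953 regions held peaks of 3 lists, 1482 held 1 list of each side and 10970 held a single list. The single-list regions came from TFE3-named replicate 1 in 2353 cases, TFE3-named replicate 2 in 1987, EV-named replicate 1 in 4413 and EV-named replicate 2 in 2217. The regions with 1 list of each side numbered 688, 384, 218 and 192 for the 4 combinations, so that the TFE3 side lay within the range of these mixed combinations and the EV side above it.

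Repetition between replicates was scored among regions that lacked a peak on the other side. Of 4791 regions with a TFE3-named peak and no EV-named peak, 451 held both TFE3-named lists, or 9.41% (95% Wilson interval 8.62 to 10.3). The corresponding share for the EV-named pair was 3815 of 10445 regions, or 36.5% (35.6 to 37.5). Wilson intervals here cover counting error only, since regions of 1 library are not independent samples. These shares leave out every region with peaks on both sides, so they do not give the repetition of whole lists. Of the bp in TFE3-named replicates 1 and 2, 67.8% and 76.1% lay under peaks of the other replicate. In EV-named replicates 1 and 2 it was 72.8% and 89.7%.

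The size of the sides depended on how many peaks entered and on how presence was scored. With the top 20000 peaks per list the TFE3 side held 500 regions and the EV side 2120, and with the top 10000 peaks they held 678 and 977. Going from the top 10000 to the top 30236 peaks, the number of EV-side regions for each TFE3-side region moved from 1.44 to 8.46. When peaks were replaced by their summits with 500 bp added on either side, there were 3066 TFE3-side and 3896 EV-side regions. Of these TFE3-side summit windows 2569, or 83.8%, overlapped a region in which all 4 lists had a peak, so that in these places the 2 sides had peaks over the same domain with the summit elsewhere. For the EV side the number was 289 of 3896, or 7.42%.

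The order of the sides turned over when the lists were matched on covered length. With each list taken down to 38.0 Mb, which left 5060 and 6234 peaks in the EV-named lists, the TFE3 side held 9812 regions and the EV side 1. Of those 9812 regions 9558, or 97.4%, overlapped a peak of at least 1 EV-named list among its top 30236. The opposite was seen with fixed thresholds. At a −log10 q of at least 5 the TFE3 side held 84 regions and the EV side 6790. With limits chosen after seeing the data, at a −log10 p of at least 10 the TFE3 side held 27 regions and the EV side 8052, and at a fold of at least 4 they held 20 and 14720. Which side was larger thus changed with the quantity on which the lists were made equal.

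**Figure D1:**
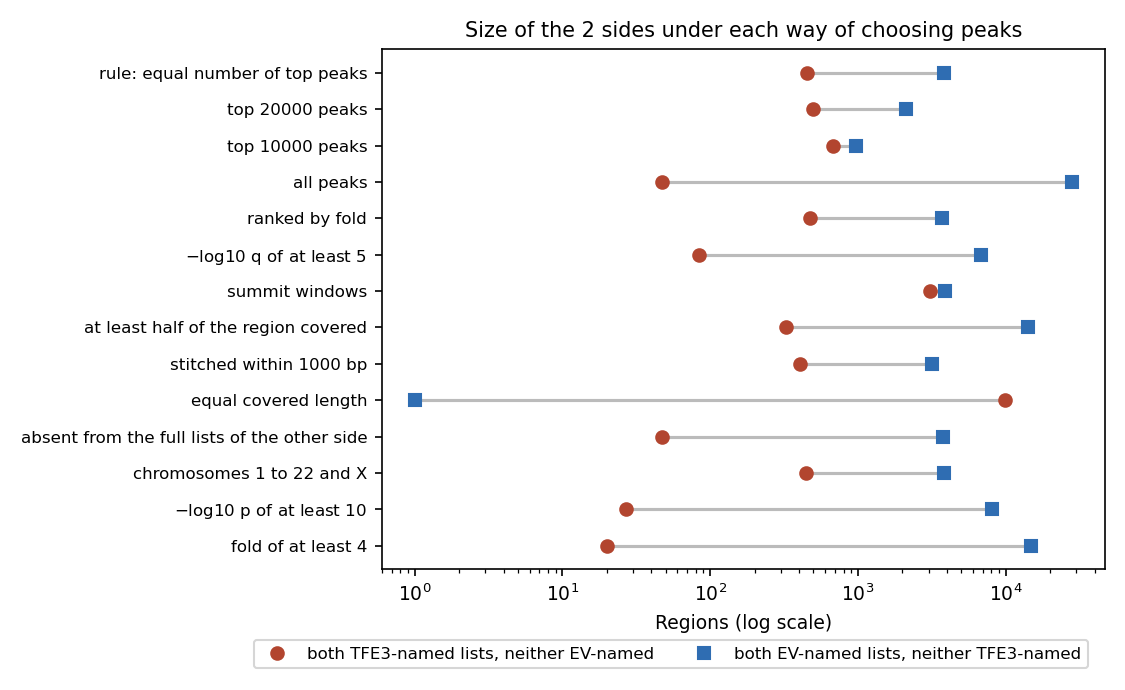
Number of regions on each side (x axis, log scale) under each way of choosing peaks or scoring presence (y axis), with circles for regions in both TFE3-named lists and neither EV-named list and squares for the opposite. The rule gives 451 and 3815 regions, summit windows bring the sides to 3066 and 3896, and equal covered length turns the order over to 9812 and 1.

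Side regions were drawn from the lower part of every list. The weaker of the 2 peaks of a TFE3-side region had a median rank of 23681, from 6830 to 30235, and 2 of 451 regions had both peaks among the top 10000. For the EV side the median was 23746, from 4442 to 30235, and 20 of 3815 regions had both peaks among the top 10000. The ranks of the 2 sides were thus nearly the same, although the −log10 p at those ranks was not. The best peaks of TFE3-side regions had a median −log10 p of 6.56 and 6.28 in replicates 1 and 2, and those of EV-side regions had 16.6 and 12.5. Their median fold was 3.59 and 3.59 on the TFE3 side and 7.04 and 6.61 on the EV side.

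The share of side peaks rose down the lists before it fell again. In TFE3-named replicate 1, 0.02% of the top 5000 peaks lay in TFE3-side regions, 2.84% of those ranked 20001 to 25000 and 2.25% of those ranked 25001 to 30236. In TFE3-named replicate 2 the same rank classes gave 0%, 2.66% and 2.18%. In EV-named replicate 1 they gave 0.08%, 25.5% and 17.6% for EV-side regions, and in EV-named replicate 2 they gave 0.02%, 28.1% and 25.3%. Peaks in regions of all 4 lists made up at least 99.68% of the top 5000 peaks of each list. In the last rank class they still made up 52.8% and 62.0% of peaks in the TFE3-named lists, against 10.2% and 27.01% in the EV-named lists.

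**Figure D2:**
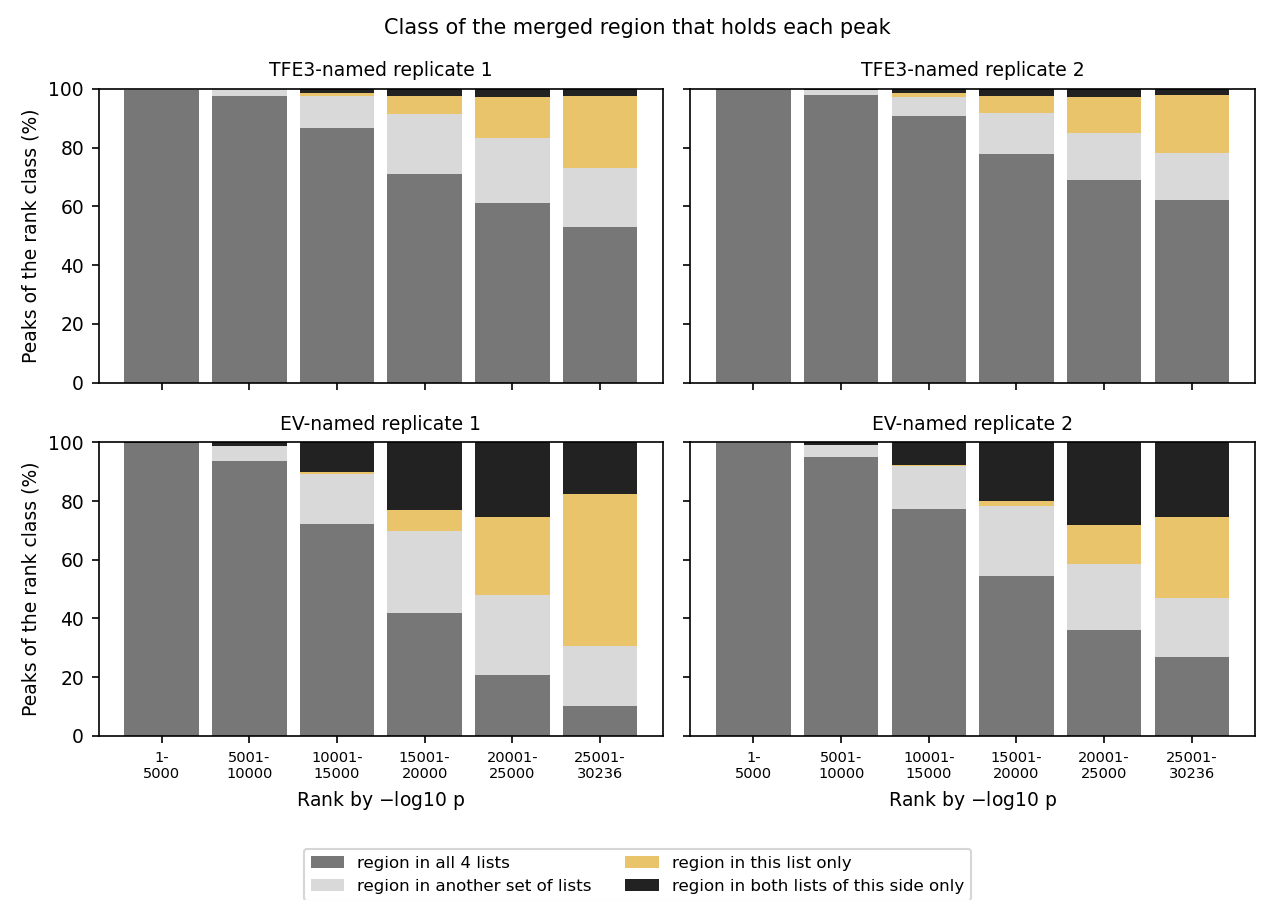
Share of peaks (y axis, %) by the class of the merged region that holds them, in 6 classes of rank by −log10 p (x axis), for each of the 4 lists. The black part, peaks in regions of both lists of the same side and neither of the other, stays under 3% in the TFE3-named lists and reaches 25.5% and 28.1% in the EV-named lists.

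TFE3-side regions were narrow under the rule. Their merged width had a median of 829 bp, from 318 to 2943 bp, and 14 of 451 were wider than 2000 bp. EV-side regions had a median of 2547 bp, from 299 to 20463 bp, and 2513 of 3815 were wider than 2000 bp. With summit windows the TFE3 side was the wider, at 1277 against 1142 bp. At equal covered length it was 1477 bp against 1255 bp for the 1 EV-side region left. Regions in all 4 lists had a median of 4559 bp, and 14434 of 15858 were wider than 2000 bp. Regions in 1 TFE3-named list alone had a median of 407 bp, and those in 1 EV-named list alone 1213 bp. Regions found in 2 lists of a side were thus wider than those of its single lists and narrower than those shared by all 4. This order is set in part by the merging, since a merged region is at least as wide as each of its peaks. Regions of all 4 lists also hold the wider EV-named peaks.

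Widths were also compared with those of all peaks of the same ranks. At ranks 20001 to 25000, peaks in TFE3-side regions had a median width of 531 bp in TFE3-named replicate 1 and 473 bp in replicate 2, against 546 and 489 bp for all peaks of those ranks. In EV-named replicates 1 and 2, peaks in EV-side regions had medians of 2157 and 1525 bp against 2060 and 1550 bp for all peaks of those ranks. At ranks 10001 to 15000, peaks in side regions were narrower than all peaks of those ranks in each list, with 916 against 1218 bp, 681 against 990.5 bp, 2784.5 against 3617.5 bp and 2280 against 2837 bp.

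**Figure D3:**
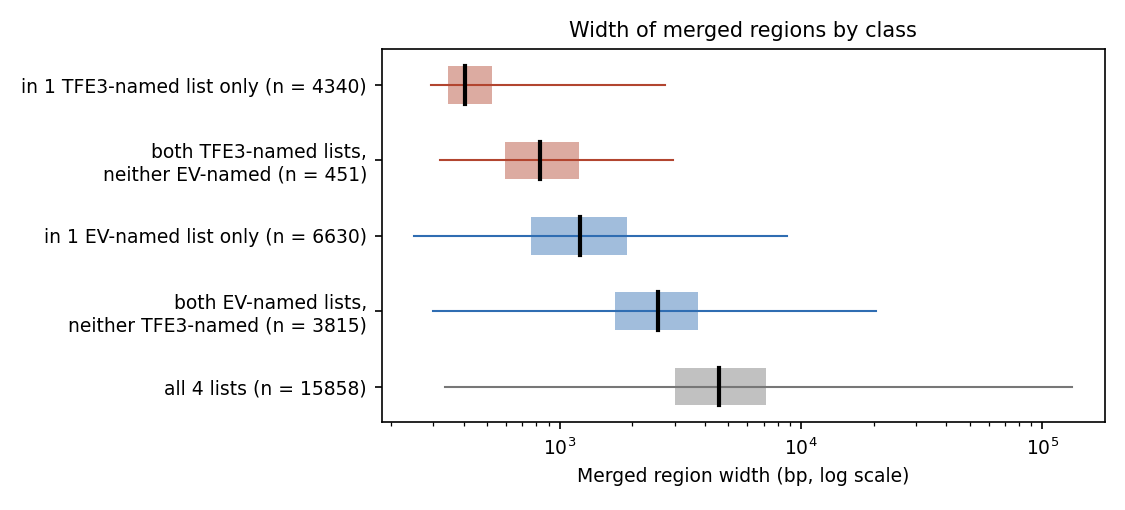
Width of merged regions (x axis, bp, log scale) for 5 classes of regions (y axis), with a line from the narrowest to the widest, a box over the middle quartiles and a black bar at the median. TFE3-side regions have a median of 829 bp, EV-side regions 2547 bp and regions of all 4 lists 4559 bp.

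Most TFE3-side regions were present in the EV-named lists past the limit. Of 451 regions, 404 (89.6%) had a peak in at least 1 full EV-named list, 372 in replicate 1, 318 in replicate 2 and 286 in both. The median rank of these peaks was 43696 in EV-named replicate 1 and 48564.5 in replicate 2. Of the 4340 regions in 1 TFE3-named list alone, 2635 (60.7%) had a peak in at least 1 full EV-named list. The same question has no equal answer for the EV side, since TFE3-named replicate 2 ends at the limit and replicate 1 goes 850 peaks past it. A peak of TFE3-named replicate 1 past the limit lay in 63 of 3815 EV-side regions, or 1.65%.

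For the 286 regions with peaks in all 4 full lists, fold and summit fragments are given as a description. The rule placed these regions on the TFE3 side because their EV-named peaks ranked past the limit by −log10 p, a value made from the summit count and the background, so the EV-named values were capped by the choice and no direction is read from them. The median fold was 3.68 and 3.67 in TFE3-named replicates 1 and 2 and 3.998 and 4.128 in EV-named replicates 1 and 2. The mean fold of the EV-named lists was above that of the TFE3-named lists in 193 of 286 regions. Both EV-named folds were above both TFE3-named folds in 92, and both were below in 32. The number of fragments over the summit, solved from the fold and the p-value of each peak, had a median of 18 and 16 in the TFE3-named lists and of 15 and 11 in the EV-named lists. Both TFE3-named counts were above both EV-named counts in 140 of 286 regions, and both were below in 2. The mean count was above in the TFE3-named lists while the mean fold was above in the EV-named lists in 166 of 286 regions. The background against which the summits were called had a median of 3.93 and 3.61 fragments at these regions in the TFE3-named lists and of 2.98 and 1.74 in the EV-named lists. The counts were not scaled for the depth of the libraries, which was not given in the files used here. The counts therefore do not compare acetylation between the libraries. Over whole lists, the 1st percentile of the background was 2.79 and 2.80 fragments in the TFE3-named lists. In the EV-named lists it was 2.18 and 1.42. How far depth sets the counts was not tested.

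**Figure D4:**
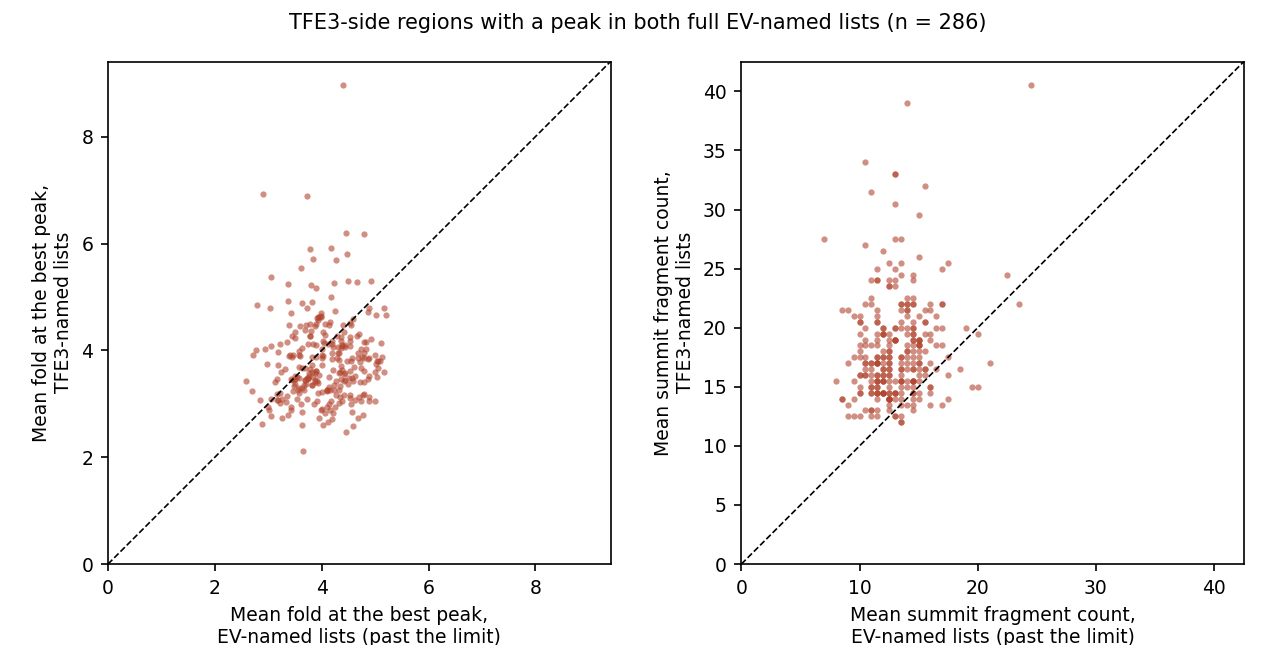
The 286 TFE3-side regions with a peak in both full EV-named lists, with the mean of the 2 EV-named lists on the x axis and of the 2 TFE3-named lists on the y axis, for the fold at the best peak (left) and the summit fragment count (right). Dashed lines mark equality. The regions were chosen for EV-named peaks past the limit of −log10 p, which caps the EV-named values, so the side of the line on which points fall (EV-named mean fold higher in 193 regions, TFE3-named mean count higher in 257) is a description of the choice as well as of the lists.

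A peak in neither full EV-named list was left for 47 of the 451 TFE3-side regions, or 10.4% (95% Wilson interval 7.93 to 13.6). They were 352 to 1409 bp wide, with a median of 749 bp, and their weaker rank had a median of 23677. Their median fold was 3.38 and 3.35 in TFE3-named replicates 1 and 2, with 17 and 16 fragments over the summit. Their median weaker rank was close to the 23681 of all 451 TFE3-side regions, and their median folds lay below the 3.59 and 3.59 of all 451.

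Single regions show the range of these patterns. All positions below are on GRCh37/hg19, counted from 1, as the lists give them. Gene names are not given, because the annotation used here is of another build. The best-placed TFE3-side region was chr13:114540149-114540899, 751 bp wide. It ranked 6830 and 5613 in TFE3-named replicates 1 and 2, with folds of 9.23 and 8.69 and summit counts of 34 and 32. In the EV-named lists it ranked 32484 and 57356, with folds of 5.03 and 3.78 and summit counts of 15 and 11. The rule required EV-named ranks past the limit, so no direction is read from these values. Of the lists not used by the rule, 9 of 10 had a peak there.

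A pair of neighbouring regions on chromosome 1 came next. The region chr1:16993266-16993726 ranked 4995 and 9099, with folds of 11.1 and 6.58 and summit counts of 41 and 24. EV-named replicate 1 had a peak at rank 44339 with a fold of 4.10, EV-named replicate 2 had none, and none of the other 10 lists had one. The region chr1:17066715-17067187 ranked 7919 and 10364, with folds of 7.79 and 6.05, and the EV-named lists had peaks at ranks 100640 and 81968, far down those lists. Of the other 10 lists 1 had a peak there. These were the 2 regions among the 10 best-placed TFE3-side regions with the fewest peaks in other lists.

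The region GL000226.1:13874-14622 lies on a contig without a chromosome position in this build. Its summit counts were 1622 and 1783, far above those of any other TFE3-side region named here, but its folds were 1.24 and 1.28. Neither EV-named list had a peak there, and 2 of the other 10 lists did. A fold under 2 in either own list was found in 3 of 451 TFE3-side regions and in 0 of 3815 EV-side regions, which allows a share of up to 0.101% by the Wilson interval. Contigs outside chromosomes 1 to 22 and X held 3 TFE3-side and 8 EV-side regions.

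The region chr4:93012018-93012610 was the best-placed TFE3-side region on a chromosome with no peak in the full EV-named lists. It ranked 10430 and 12282, with folds of 6.86 and 5.36 and summit counts of 25 and 20, and 6 of the other 10 lists had a peak there. The nearest region of all 4 lists was 2115620 bp away, the largest such distance among the TFE3-side regions. The next was chr14:71846479-71847887, with ranks of 14881 and 10571, folds of 5.08 and 5.74 and peaks in 5 of the other 10 lists. Absence from the EV-named lists thus did not mean absence from the rest of the series in these 2 regions.

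The other TFE3-side regions among the 10 best placed had folds of 4.98 to 8.79 and a peak in at least 1 full EV-named list. At chr13:50717725-50719346 the folds were 6.60 and 7.32, and EV-named replicate 1 had a peak at rank 99536 with a fold of 2.29. At chr19:46636016-46637813 the folds were 8.79 and 4.98, and the EV-named lists had folds of 2.68 and 4.76. The widest TFE3-side region was chr19:45276635-45279577, at 2943 bp. It ranked 26930 and 14164 in the TFE3-named lists and 31947 and 31425 in the EV-named lists, so that it lay just past the limit of both EV-named lists.

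Values next to the limit were as follows. The region chr6:111905404-111906252 was on the TFE3 side with rank 30235 in TFE3-named replicate 1, where its −log10 p was 3.69, and EV-named replicate 1 had a peak there at rank 42527 with a fold of 3.63, while EV-named replicate 2 had none. The region chr4:84277997-84278380 was on the TFE3 side with folds of 3.66 and 3.68, although EV-named replicate 1 had a peak at rank 30254 with a fold of 5.35. On the EV side, chr5:125957644-125962426 ranked 15809 and 13688 with folds of 7.96 and 7.73, and the peak of TFE3-named replicate 1 lay at rank 30246 with a fold of 2.02, while TFE3-named replicate 2 had none. The rule required that no TFE3-named peak of that region lay within the limit, so no direction is read from these values.

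Folds in EV-side regions reached higher values than those in TFE3-side regions. The median fold of the EV-named lists was also higher over all top peaks and over regions of all 4 lists. In regions of all 4 lists the median fold was 17.0 and 14.5 in the EV-named lists and 6.58 and 5.76 in the TFE3-named lists, and the medians of EV-side peaks, 7.04 and 6.61, lay below those of all top peaks of their lists. The best placed was chr12:132111079-132112333, 1255 bp wide, with ranks of 4442 and 1595, folds of 14.3 and 20.9 and summit counts of 126 and 102. No TFE3-named list had a peak there, and 1 of the other 10 lists did, TAZ4SA-named replicate 2 (label TAZ_CAMTA1) at rank 7491. The region chr19:18698864-18702423 had folds of 25.7 and 13.3, and TFE3-named replicate 1 had a peak past the limit, at rank 30652 with a fold of 2.37. The region chr9:132499770-132501025 had folds of 20.9 and 16.6 and no TFE3-named peak, with a peak in 4 of the other 10 lists. The region chr20:61271921-61276724 had folds of 25.5 and 13.6 and a peak in 8 of the other 10 lists. In these 4 regions the lower of the EV-named folds was above 13, while the highest fold of either list in any TFE3-side region was 11.1.

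The widest EV-side regions were broad domains in EV-named replicate 1 and were broken into several peaks in replicate 2. The region chr22:46494417-46514879 spanned 20463 bp as 1 peak in EV-named replicate 1 and 4 peaks in replicate 2, with ranks of 18993 and 16119 and folds of 8.19 and 9.49. The region chr15:90344842-90363003 spanned 18162 bp with ranks of 9741 and 14535, and chr7:150025536-150040060 spanned 14525 bp with ranks of 14634 and 13220. Both were 1 peak in EV-named replicate 1 and 3 peaks in replicate 2. The regions of all 4 lists nearest to these 3 were 307, 477 and 659 bp away, so that each lay beside a domain with peaks on both sides.

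Positions along the genome are given by chromosome, in order of the difference between the sides, for the 7 with the largest difference in share. Chromosome 19, which is gene-dense, held 4 TFE3-side regions (0.887% of the side) and 199 EV-side regions (5.22%), against 4.25% of all merged regions. Chromosome 4 held 29 (6.43%) and 98 (2.57%), against 3.59%, and chromosome 6 held 33 (7.32%) and 155 (4.06%), against 5.30%. Chromosome 17 held 14 (3.10%) and 206 (5.40%), against 4.80%, and chromosome 1 held 52 (11.5%) and 356 (9.33%), against 9.04%. Chromosome 8 held 29 (6.43%) and 166 (4.35%), against 4.81%, and chromosome 22 held 6 (1.33%) and 128 (3.36%), against 2.29%. These shares are descriptions of 1 set of regions, and chromosomes were not tested. The median distance from a side region to the nearest region of all 4 lists was 21953 bp on the TFE3 side and 22621 bp on the EV side, and the median number of such regions within 500 kb was 8 and 10.

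Neighbouring side regions were counted next. In windows of 1 Mb, 374 of 2424 windows with a merged region held a TFE3-side region, and 315 of them held 1. The EV side reached 1416 windows, of which 509 held 1. The window from 138 to 139 Mb of chromosome 6 held 6 TFE3-side regions among 25 merged regions, with no EV-side region. No other window held more than 4, a number reached on chromosome 1 at 110 to 111 Mb and 244 to 245 Mb, on chromosome 2 at 40 to 41 Mb and on chromosome 17 at 40 to 41 Mb. The EV side had 15 of 43 regions at 29 to 30 Mb of chromosome 10, 14 of 56 at 4 to 5 Mb of chromosome 20, and 13 of 31 at 67 to 68 Mb of chromosome 5, with no TFE3-side region in any of them. A window of chromosome 9 also held 13 EV-side regions, of 32. The longest run of TFE3-side regions with no other merged region between them was 3, at chr14:96600805-96613022. The longest for the EV side was 6, at chr14:91693365-91885203 and at chr20:36815425-36876865. With 8.46 EV-side regions for each TFE3-side region, the part of its size in these longer runs and fuller windows was not tested.

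The 10 lists that the rule did not use were searched for the side regions. Of the 451 TFE3-side regions 26 (5.76%) had a peak in none of the 10 lists, and of the 3815 EV-side regions 487 (12.8%) did. The median number of other lists with a peak was 4 for each side. Among the 47 TFE3-side regions absent from the full EV-named lists, 5 had a peak in none of the 10, and the median was 2 lists. Most side regions of either kind were thus seen with at least 1 other construct.

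The lists with CAMTA1 in the file name, which the labels call empty vector, had a peak in 57.2% and 62.7% of TFE3-side regions in replicates 1 and 2 and in 39.2% and 52.5% of EV-side regions. The YT-named lists carry TFE3 sequence under both namings, as YAP-TFE3 by file name and TFE3 by label. YT-named replicate 2 had a peak in 53.0% of TFE3-side and 51.8% of EV-side regions. YT-named replicate 1 held 5721 peaks in all and had a peak in 4 TFE3-side regions and in 0 EV-side regions, which allows up to 0.101% by the Wilson interval, so it gave little information on either side. The TAZ4SA-named lists (label TAZ_CAMTA1) had a peak in 23.3% and 41.5% of TFE3-side and in 14.1% and 59.1% of EV-side regions, so that their replicates went in opposite directions. The TC-named lists (label CAMTA1) had 63.2% and 27.7% against 52.8% and 19.4%, and the YAP5SA-named lists (label YAP_TFE3) had 65.0% and 43.5% against 51.2% and 36.7%. The share was higher for the TFE3 side in 9 of the 10 lists, the exception being TAZ4SA-named replicate 2. The sides were not held to equal absence. An EV-named peak past the limit lay in 404 of 451 TFE3-side regions, and a TFE3-named one in 63 of 3815 EV-side regions. Regions of all 4 lists had a peak in 71.2% to 98.7% of cases in 9 lists and in 27.3% in YT-named replicate 1.

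**Figure D5:**
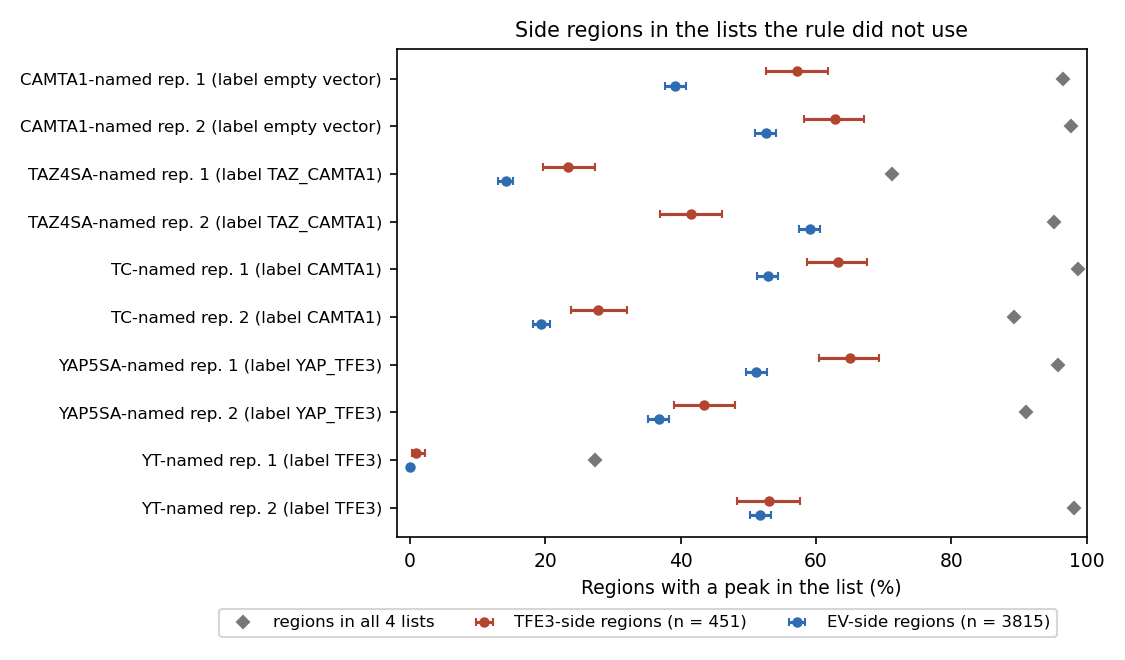
Share of TFE3-side regions, EV-side regions and regions of all 4 lists (x axis, %) with a peak in each of the 10 lists the rule did not use (y axis, by file name with the label in brackets). Bars are 95% Wilson intervals for the side regions and cover counting error only. The share is higher for the TFE3 side in 9 lists and higher for the EV side in TAZ4SA-named replicate 2. The sides were not held to equal absence, as 404 of 451 TFE3-side regions had an EV-named peak past the limit.

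Recurrence was tested over lists. For each of the 10 lists the log2 ratio of the share of TFE3-side regions to the share of EV-side regions with a peak was taken, with 0.5 added to each count. The ratio was 6.25 in YT-named replicate 1, where it rests on 4 regions against 0, and 0.03 in YT-named replicate 2. Among these 4 was the contig region GL000226.1:13874-14622, whose TFE3-named folds were 1.24 and 1.28. The ratio was 0.54 and 0.26 in the CAMTA1-named lists and ranged from −0.51 to 0.72 in the other 6. The mean of the YT-named pair exceeded that of the other 8 lists by 2.84, with an exact two-sided permutation p of 0.178 over 45 choices of 2 lists, or 0.356 after Benjamini-Hochberg adjustment over 2 tests. Without YT-named replicate 1 the difference turned to −0.26. The mean of the CAMTA1-named pair differed from that of the other 8 lists by −0.58 (exact permutation p = 0.778, adjusted p = 0.778), and this difference also turned, to 0.17 without YT-named replicate 1 and to 2.38 with the top 5000 peaks of the other lists. With side regions absent from the full lists of the other side, the mean ratio of the CAMTA1-named pair was −0.0862, against 0.40 under the rule. That of the 8 lists outside the YT-named pair was −0.196, against 0.297 under the rule. The smallest p of this permutation is 0.0222. It takes the 10 lists as exchangeable, although 2 lists share each construct. YT-named replicate 1, whose ratio is set by the 0.5 added to a count of 0, enters both tests, so neither test shows whether a pair stands apart from the other lists.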

How the data were processed

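H3K27ac ChIP-seq peak lists of 4 libraries, 2 per side, were analysed, and 10 more lists were used for recurrence. According to the methods of the study, reads were trimmed and aligned with BWA-MEM to GRCh37/hg19, greylist regions and multimappers were dropped, and MACS2 called peaks from read pairs. A deposited line holds the interval and summit of a peak with 4 values from the authors' caller, which are a score, the fold (a ratio of signal to background at the summit), the −log10 of the p-value and the −log10 of the q-value. The methods describe pooled replicates. The lists used here are separate for each library, and no peak had a q above 0.05. Input libraries were not analysed here. The replicates are described as biological duplicates, and p-values measure the spread between lists.

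Sides were taken from the file names and replicate numbers from the labels. The regions, lists and rules were chosen with earlier results of these data known. Peaks were ranked by −log10 p, taken to 30236 per list and merged at an overlap of at least 1 bp. Summit fragment counts were solved from the fold, (count + 1) / (background + 1), and the Poisson p, and at least 99.9967% came out whole within 0.05. With the background, they are the only values here that bear on depth, as read totals were not given in the files used. Named regions were, for each side, the 10 whose weaker list ranked best, the 3 widest, the 3 with the highest fold in the weaker list, the 3 windows of 1 Mb with most regions, those next to the limit, and the 3 best placed with no peak in the full lists of the other side, with a part of them printed. Counts are descriptions. Recurrence was tested by exact two-sided permutation of lists, with Benjamini-Hochberg adjustment.

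Alternatives were the top 20000, the top 10000 and all peaks, ranking by fold, a −log10 q of at least 5, summit windows, coverage of at least 50% of a region, stitching within 1000 bp, equal covered length, absence from the full lists of the other side, chromosomes 1 to 22 and X, and leaving out each list. For recurrence they were the top 20000 or 5000 peaks, side regions absent from the full lists of the other side, 1 added to each count, each list left out, and the replicate number as a block. Thresholds of −log10 p of at least 10 and fold of at least 4 were added after seeing the data. Whether lists with the same replicate number deviate together was checked. The replicate differences in log2 fold over regions of all 4 lists had a Pearson's r across regions of −0.067 to 0.142 for the 21 pairs of constructs, and of 0.0666 between the TFE3-named and EV-named lists. It was over 0.1 in 1 pair, TAZ4SA-named and YT-named, whose file names number the replicates 2 and 3 where the labels give 1 and 2, so the numbers were not taken to pair the samples. Code was tested on simulated data. The work was done in Python 3.11.15 with pandas 2.3.3, scipy 1.17.1, numpy 2.4.6 and matplotlib 3.10.9.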

Additional observations from a re-analysis of the deposited data

How the results depend on the processing

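The counts of side regions followed the number and length of the peaks that entered. The TFE3 side (451 regions) held 678 with the top 10000 peaks, 84 at a −log10 q of at least 5, 3066 with summit windows, 9812 at equal covered length, 47 with all peaks and 47 when absence was scored on the full EV-named lists, and 27 and 20 at the added limits of −log10 p 10 and fold 4. The EV side (3815 regions) held 2120 and 977 with the top 20000 and 10000 peaks, 28001 with all peaks, 6790 at a −log10 q of at least 5, 14036 when a list had to cover 50% of the region, 1 at equal covered length, and 8052 and 14720 at the added limits. Regions of all 4 lists (15858) numbered 6413 with the top 10000 peaks, 2807 at 50% coverage, 4593 at equal covered length and 10369 at a −log10 p of at least 10. Ranking by fold, stitching and chromosomes 1 to 22 and X left all 3 counts within 1.5 times.

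The median width of the TFE3 side (829 bp) was 1255 and 1940.5 bp with the top 20000 and 10000 peaks, 749 bp with all peaks and 749 bp with absence from the full lists, 965.5 bp at a −log10 q of at least 5, 1277 bp with summit windows, 731.5 bp at 50% coverage, 1016 bp after stitching and 1477 bp at equal covered length. That of the EV side (2547 bp) was 3602, 5204 and 1178 bp with the top 20000, the top 10000 and all peaks, 1142 bp with summit windows, 4233 bp at 50% coverage and 1255 bp at equal covered length, where 1 region was left. The TFE3 side was narrower than the EV side in all of these except summit windows and equal covered length.

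Leaving out a list makes 1 list of that side enough, so counts rise by construction. The TFE3 side then ranged from 644 to 2829 regions, the EV side from 5047 to 8819 and the regions of all lists from 16624 to 17913, with median widths of 406 to 890 bp and 1306 to 2702 bp. For recurrence, the difference of the YT-named pair ranged from −0.26 to 5.95 without 1 list, and it was −0.26 without YT-named replicate 1. That of the CAMTA1-named pair ranged from −0.80 to 0.17, was 0.17 without YT-named replicate 1, and was 2.38 with the top 5000 peaks of the other lists. With the replicate block the differences stayed at 2.84 and −0.58, with exact permutation p of 0.16 and 0.8 over 25 choices, and no adjusted p was under 0.05. The smallest p possible was 0.04 with the replicate block and 0.0278 or 0.111 without 1 list, so that after adjustment 1 pair alone could not have passed in those settings, and they say nothing about stability. No paired analysis was possible for the counts of regions because they come from no test. With 1 library per list and summit counts of 10 to 16 at the limit, absence of a peak shows only that a call was not reached at this depth.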
